A study of Homo sapiens and Mus musculus with 7 samples.

Results

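The RAB GTPases are the largest branch of the RAS superfamily of small GTP-binding proteins. The members described here were the genes of the RNA-seq table whose symbol is RAB followed by a number and at most 1 letter. There were 54 of them among 14920 genes. Expression was measured in HEL, an established human erythroleukaemia cell line that expresses globin genes, in 4 groups of 1 library each. In the knockdown groups the cells were labelled KAP1 KD, and in the control groups KAP1 WT. KAP1 (gene symbol TRIM28) is a corepressor that KRAB zinc finger proteins bring to DNA. Cells of each genotype were either not activated or activated with hemin, an iron porphyrin that raises globin expression, at 50 µM for 5 days. The labels name neither the knockdown agent nor whether the line is 1 clone, and the table heads its control columns Ctrl, which were taken as KAP1 WT because it is the other genotype listed for these cells.

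As background, a RAB protein switches between a GDP-bound and a GTP-bound form and, in the latter, recruits effectors to one kind of membrane. Exchange factors load GTP, GTPase-activating proteins with a TBC domain end the active state, and prenylation lets the protein enter membranes. Each compartment has its own members: RAB1 and RAB2 act between the endoplasmic reticulum and the Golgi, RAB5 on early endosomes, RAB7 on late endosomes and lysosomes, RAB4 and RAB11 on recycling endosomes, and RAB3 and RAB27 on secretory granules. In blood cells the granule members serve the release of platelet, mast cell and eosinophil contents, and recycling members serve the return of the transferrin receptor in erythroid cells.

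The sequence before the start of the gene is shown for 4 members on which the results turn: RAB3C and RAB3D, which differed most between knockdown and control and in opposite directions, RAB1B, an abundant member that was higher in the knockdown, and RAB14, one that was lower. Each is the 250 bases upstream of the RefSeq gene start on the gene's strand, 5′ to 3′, from RefSeq on GRCh38.p14. Capitals mark the GC box GGGCGG or its reverse complement CCGCCC.
RAB3C (chr5:58582825-58583074, plus strand): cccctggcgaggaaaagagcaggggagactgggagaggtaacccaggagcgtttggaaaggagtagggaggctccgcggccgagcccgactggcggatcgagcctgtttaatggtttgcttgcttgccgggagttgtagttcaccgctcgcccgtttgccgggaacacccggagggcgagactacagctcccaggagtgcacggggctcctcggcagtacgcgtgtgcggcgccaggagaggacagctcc
RAB3D (chr19:11339658-11339907, minus strand): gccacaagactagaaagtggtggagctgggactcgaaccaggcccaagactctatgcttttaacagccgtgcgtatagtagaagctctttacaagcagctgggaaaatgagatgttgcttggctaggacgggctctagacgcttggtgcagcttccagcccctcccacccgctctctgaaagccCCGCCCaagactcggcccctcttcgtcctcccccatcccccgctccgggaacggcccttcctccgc
RAB1B (chr11:66268389-66268638, plus strand): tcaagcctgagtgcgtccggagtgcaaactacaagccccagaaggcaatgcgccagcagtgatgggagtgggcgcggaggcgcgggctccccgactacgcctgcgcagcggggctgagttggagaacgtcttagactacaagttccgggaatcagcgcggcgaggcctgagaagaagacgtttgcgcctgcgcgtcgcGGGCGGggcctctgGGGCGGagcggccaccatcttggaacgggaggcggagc
RAB14 (chr9:121201870-121202119, minus strand): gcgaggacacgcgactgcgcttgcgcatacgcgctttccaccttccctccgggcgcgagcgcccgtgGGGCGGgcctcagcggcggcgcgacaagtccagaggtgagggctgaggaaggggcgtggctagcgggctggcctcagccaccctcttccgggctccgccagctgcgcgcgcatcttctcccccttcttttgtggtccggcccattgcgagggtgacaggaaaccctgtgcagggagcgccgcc
The RAB1B window held 2 GC boxes, those of RAB3D and RAB14 1 each and that of RAB3C 0. A promoter entry was matched by symbol for 42 of the 54 members. On either strand, GGGCGG was present in 36 of these 42 windows (85.7%), against 42.6% of all 35116 promoter windows of the same length. Median GC content was 65.6% in the members' windows and 58.0% in all windows, and the median number of CpG dinucleotides was 22.5 against 11. The TATA box TATAAA was in 2 members' windows (4.76%, against 10.7% of all), and the GATA-type motifs AGATAA or TGATAA in 5 (11.9%, against 14.6%), namely RAB23, RAB27A, RAB27B, RAB3A and RAB3B. The other motifs looked for were the E-box CACGTG, in 5 members' windows (11.9%, against 6.34%), and the antioxidant response element core TGACNNNGC, in 8 (19.0%, against 10.9%). RAB windows were thus mostly rich in GC and CpG and, like most of all windows, without a TATA box. The set of all windows was not limited to genes of the RNA table, from which the members came, so the 2 sets are unlike. A match is a run of letters and no evidence of binding.

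Levels are given below as scaled TPM, a value per transcript length that is corrected for the depth of the library and averages to a sum of 1000000 per library. The order is always control without hemin, control with hemin, knockdown without hemin, knockdown with hemin. Ratios are on the log2 scale after 0.5 was added to each level, which pulls the ratios of low genes towards 0. Since each group was 1 library, no ratio between 2 libraries has a replicate error or a p-value, and the 95% intervals given are exact binomial intervals on the reads, which cover counting error only and were computed without the added 0.5. The libraries held 33529355, 37148916, 23529352 and 41222452 reads on the transcripts used. TRIM28 itself stood at 421, 400, 317 and 190, with log2 ratios for knockdown over control of −0.41 in unactivated and −1.07 in hemin-treated cells. TRIM28 transcript was lower in both knockdown libraries. Its row is one of 5 that hold whole numbers, and its unit was assumed to be that of the other rows; without any rescaling of the deposited values the ratios were −0.99 and −0.86, so their order between the states rests on the scaling. All 14 erythroid markers looked for had a row, and 13 stood at a level of 5 or more in each library. Their summed level was 15764, 61677, 19417 and 77210, and no T cell or fibroblast marker of 3 each had a row. Markers of monocytes and macrophages (4 of 4 with a row) summed to 83.2, 186, 64.4 and 102, of B cells (1 of 3) to 28.0, 8.51, 8.73 and 3.33, and of epithelia (3 of 4) to 46.6, 90.3, 29.2 and 38.7. These are bulk samples, in which fewer cells of a type and less RNA per cell cannot be told apart.

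Most RAB genes were expressed in HEL cells, over a range from under 1 to 592 scaled TPM. A level of 5 was reached in at least 1 library by 48 of the 54 members, where 11162 of all 14920 genes reached it. In the single libraries it was reached by 46, 44, 44 and 44 members. The median member stood at 35.8, 30.4, 33.9 and 39.3. The levels were uneven: the 3 highest members took 28.5%, 25.5%, 33.3% and 26.8% of the summed RAB level. RAB3B, RAB26, RAB42, RAB40A, RAB9B and RAB36 were under 5 in every library, the highest of these values being 4.88 for RAB26 in the control with hemin, and are in no count of ratios below.

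**Figure D1:**
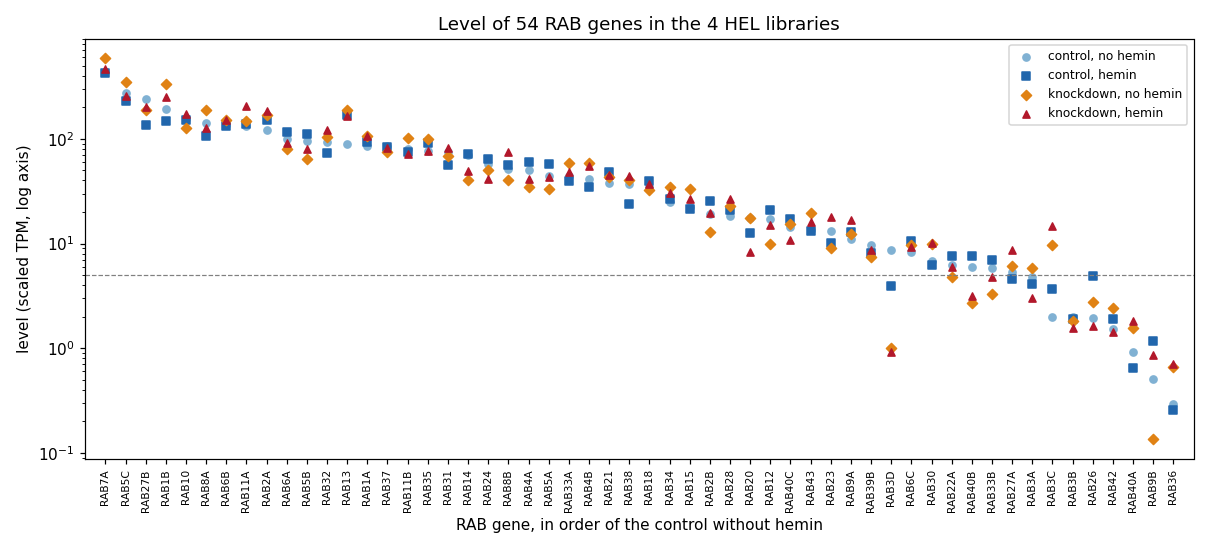
Level of each of the 54 RAB genes (scaled TPM, log axis) in the 4 libraries, with genes in the order of the control without hemin; each symbol is 1 library and the dashed line is the level of 5. RAB7A leads with 431 in that library, and the symbols of a gene mostly lie close together, with RAB3D and RAB3C as the widest spread pairs of knockdown and control.

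RAB7A, the late endosome and lysosome member, was the most abundant in all 4 libraries, at 431, 428, 592 and 465. RAB5C, an early endosome member, followed with 271, 228, 352 and 257. The granule member RAB27B was the third in the control without hemin, at 240, and stood at 135, 190 and 203 in the other libraries. These 3 show that the top of the family came from 3 different compartments. RAB1B, of early secretory transport, stood at 191, 148, 333 and 252. RAB10 and RAB8A, which serve transport to the plasma membrane, stood at 153, 150, 127 and 171 and at 142, 107, 189 and 128. RAB6B, a Golgi member, varied little, at 136, 133, 151 and 150. RAB11A of recycling endosomes stood at 131, 138, 149 and 204, RAB2A at 122, 152, 167 and 183, and RAB6A at 100, 117, 80.3 and 91.7. Of these 10, 8 were also among the 10 highest in every other library. With 1 library a group the order of close neighbours, such as RAB6B and RAB11A, has no replicate spread to be read against.

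Summed by compartment, the control without hemin held 767 on the endoplasmic reticulum and Golgi (12 members), 551 on late endosomes, lysosomes and autophagosomes (7), 547 on early endosomes and phagosomes (7), 479 on secretory granules and lysosome-related organelles (10), 473 on recycling endosomes (7) and 436 in transport to the plasma membrane (4). The sum over all members was 3308, 3240, 3827 and 3635. It differed between knockdown and control by 0.21 without hemin and 0.17 with hemin on the log2 scale, and between hemin and no hemin by −0.03 in control and −0.07 in knockdown cells.

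Knockdown and control cells were compared first without hemin. Most members differed little: 40 of the 48 at a level of 5 or more were within 1.5-fold. RAB3C and RAB13 were at least 2-fold higher in the knockdown (2 of 48, where 6.74% of the 10879 genes compared were) and RAB3D was at least 2-fold lower (1 of 48, where 6.43% of all genes were). At 1.5-fold, 3 members were higher and 5 lower, against 17.8% and 17.1% of all genes. The median RAB ratio was 0.15 and that of all genes 0.03.

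With hemin, 33 of 46 members were within 1.5-fold. RAB3C was again at least 2-fold higher (1 of 46, against 6.01% of the 10904 genes compared), and RAB40B at least 2-fold lower (1 of 46, against 4.11%). At 1.5-fold, 9 were higher and 4 lower, against 15.1% and 12.8% of all genes. The median RAB ratio was 0.17, against 0.01 for all genes. Members at least 1.5-fold apart in the same direction in both states were RAB3C and RAB1B, both higher (2 of 46, 4.35%, where 9.0% of all 10621 genes were), and RAB40B, lower (1 of 46, 2.17%, where 6.77% were). At 2-fold in both states only RAB3C remained (1 of 46, against 2.77% of all genes higher), and no member was lower (0 of 46, against 2.07%); RAB3D was not counted there because both hemin libraries were under the level of 5.

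An additive model of knockdown and hemin was fitted over the 4 libraries (limma, with the spread pooled over genes of like expression). It left 1 residual degree of freedom, which is the difference between the states and no replicate error. The prior degrees of freedom were infinite, so limma's p-values rest on the pooled spread alone. A gene's own difference between the states has no weight in them. After Benjamini-Hochberg adjustment over 11162 genes at 0.05, RAB3C and RAB1B rose with knockdown (2 of 48, where 12.1% of all genes rose). RAB3D, RAB40B and RAB14 fell (3 of 48, where 10.2% fell). RAB3C reached the level of 5 only in the knockdown libraries, RAB40B only in the control libraries and RAB3D only in the control without hemin. The filter on level thus partly fixed the direction of RAB3C, RAB40B and RAB3D. At an unadjusted p under 0.05, limma had 6 members higher and 6 lower, against 17.5% and 15.6% of all genes. An ordinary linear model without pooling called 0 members after adjustment, and likewise 0 of all 11162 genes. It had 4 members higher and 6 lower at an unadjusted p under 0.05, against 5.39% and 4.72% of all genes.

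**Figure D2:**
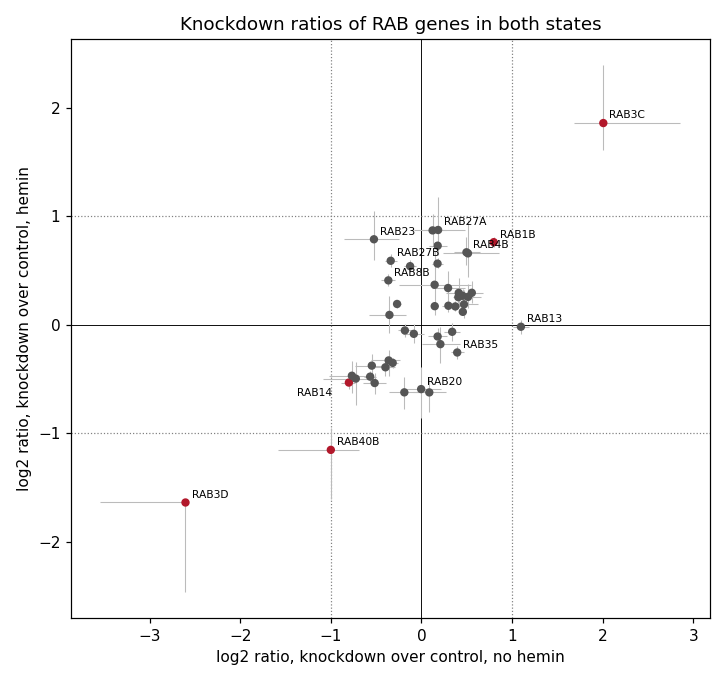
log2 ratio of knockdown over control for each RAB gene at the level of 5 in both comparisons, with RAB3D added, without hemin (horizontal) and with hemin (vertical). Bars are 95% counting intervals, extended to the point where the ratio lies outside its interval, as for RAB3D. Dotted lines mark 2-fold, and red points are the 5 genes called in the additive fit. The 5 red genes lie on the same side of 0 in both states, RAB3D at −2.60 without and −1.64 with hemin, whereas RAB13 lies at 1.10 without hemin and −0.02 with hemin.

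RAB3C, a member of the RAB3 group that acts in regulated exocytosis and is best known from neurons, stood at 2.01 and 3.68 in the control libraries and at 9.59 and 14.6 in the knockdown libraries. Both knockdown libraries were above both control libraries. The log2 ratio was 2.01 without hemin (interval 1.69 to 2.86) and 1.86 with hemin (1.61 to 2.39), on 33, 69, 116 and 317 reads. Its knockdown term was 1.93 (SE 0.34, limma adjusted p = 5.1e-07).

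RAB3D, the RAB3 member known from the granules of exocrine, mast and other blood cells, went the other way. It stood at 8.69 and 3.91 in the control and at 1.01 and 0.921 in the knockdown libraries. Both knockdown libraries were below both control libraries, on 595, 306, 51 and 83 reads. The log2 ratio was −2.60 without hemin (interval −3.54 to −2.69) and −1.64 with hemin (−2.46 to −1.73), and the knockdown term was −2.12 (SE 0.46, limma adjusted p = 9.2e-05). The intervals lie below the ratios because the ratios carry the added 0.5. The summed level of the 5 eosinophil and mast cell markers with a row, of 6 looked for, moved the same way, at 1489, 760, 20.2 and 36.4; its part in the RAB3D difference was not tested. RAB3A, the neuronal paralogue, stood at 4.76, 4.09, 5.85 and 3.02, and RAB3B at 2.01, 1.89, 1.82 and 1.57. The RAB3 sum was 17.5, 13.6, 18.3 and 20.2. RAB3D was the highest of the 4 RAB3 genes in the control without hemin, and RAB3C in both knockdown libraries.

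RAB1B carries cargo from the endoplasmic reticulum to the Golgi, and it was the most abundant of the called members. Its levels of 333 and 252 in the knockdown were above 191 and 148 in the control. The ratio was nearly the same in both states, 0.80 (interval 0.75 to 0.85) and 0.76 (0.72 to 0.81), with a knockdown term of 0.78 (SE 0.22, limma adjusted p = 0.0037). Its paralogue RAB1A stood at 85.7, 93.5, 106 and 106, a ratio of 0.30 and 0.18, which did not pass the test.

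RAB14, of transport between endosomes and the trans-Golgi, stood at 70.6 and 71.0 in the control and at 40.3 and 49.0 in the knockdown libraries. The ratios were −0.80 (interval −0.88 to −0.73) and −0.53 (−0.59 to −0.48), and the knockdown term −0.67 (SE 0.23, limma adjusted p = 0.024). Scaled by plain library totals, which move the median of all genes without hemin from 0.03 to 0.14, its adjusted p was 0.077, and in limma without the trend 0.062, so both end the call.

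RAB40B belongs to a group of atypical members that carry a SOCS box and join ubiquitin ligases. It stood at 5.96 and 7.63 in the control and at 2.73 and 3.16 in the knockdown libraries, on 169, 247, 57 and 118 reads. The ratios were −0.9999 (interval −1.59 to −0.69), just short of 2-fold, and −1.15 (−1.60 to −0.95), with a knockdown term of −1.08 (SE 0.37, limma adjusted p = 0.022). RAB40C, its paralogue, stood at 14.4, 17.0, 15.4 and 10.9. RAB40A was under 2 in every library.

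RAB13 of tight junction and plasma membrane transport had a knockdown ratio past 2-fold in one state and near 0 in the other. The control without hemin stood at 88.3, and the other 3 libraries at 169, 190 and 167. The knockdown ratio was 1.10 without hemin (interval 1.01 to 1.19) and −0.02 with hemin (−0.08 to 0.05), so that the single control library without hemin set it apart. Its knockdown term was 0.54 (limma adjusted p = 0.066) and did not pass.

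**Figure D3:**
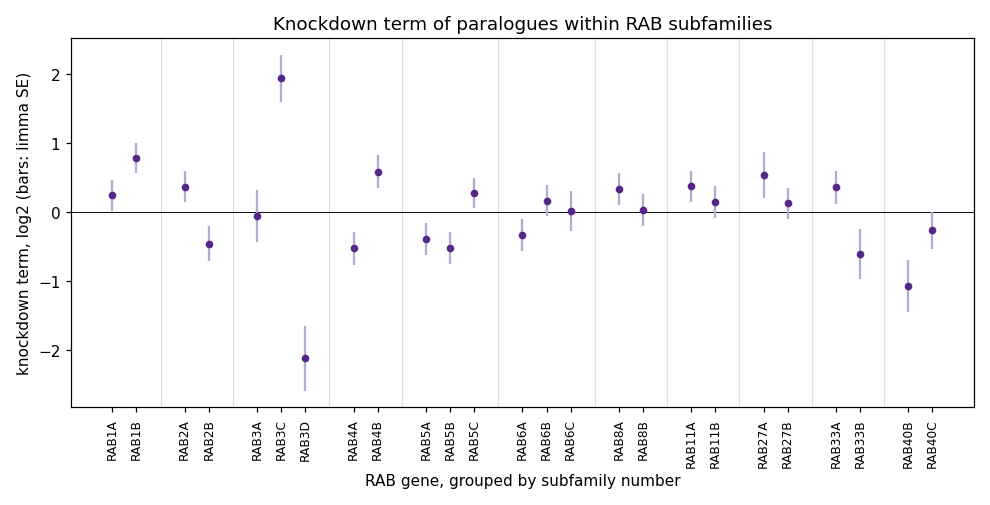
Knockdown term of the additive fit (log2, points) with its limma standard error (bars) for RAB paralogues at the level of 5, grouped by the number in the symbol. Within RAB2, RAB3, RAB4, RAB5, RAB6 and RAB33 points lie on both sides of 0, with RAB3C at 1.93 and RAB3D at −2.12 the farthest apart.

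In some subfamilies, that is members with the same number, paralogues differed in opposite directions. Of all members, 17 of 46 were above the control in both states beyond counting error (37.0%, against 28.6% of 10617 genes) and 11 were below (23.9%, against 26.2%). Of 10 subfamilies with several members at the level of 5 in both states, 5 held 1 member above and 1 below the control in both states beyond counting error, a count that was not read against unrelated genes. These subfamilies, like all paralogues beyond those of the called and most abundant members, were picked out after their values were seen. In RAB2, RAB2A had ratios of 0.45 and 0.27 and RAB2B of −0.55 and −0.38. RAB4B, of recycling endosomes, stood at 41.4, 34.3, 58.7 and 54.8, whereas RAB4A stood at 50.2, 60.0, 35 and 41.3. RAB4B thus passed RAB4A in both knockdown libraries; its knockdown term was 0.58 (limma adjusted p = 0.057), and that of RAB4A had an adjusted p of 0.093.

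In the early endosome group RAB5C had ratios of 0.37 and 0.17, while RAB5B stood at 96.0, 112, 64.7 and 80.5 and RAB5A at 44.2, 57.2, 33.4 and 43.5. The RAB5B ratios were −0.57 and −0.48, and those of RAB5A −0.40 and −0.39. No RAB5 member passed the test, and the RAB5 sum was 411, 398, 450 and 381. RAB6A had ratios of −0.32 and −0.35, while RAB6B stood at 136, 133, 151 and 150. RAB6C, a retrogene close to RAB6A with which it may share reads, stood at 8.33, 10.6, 9.71 and 9.29. RAB33A and RAB33B, Golgi members of which the latter also acts in autophagy, stood at 44.1, 39.4, 58.8 and 48.4 and at 5.81, 6.95, 3.32 and 4.79. In 4 of the 5 subfamilies every lower member had a longer transcript than every higher one, RAB6 being the exception. Across the 48 members the ratio without hemin and relative transcript length had a Spearman rho of −0.37, and across 46 with hemin −0.28; across all genes rho was −0.22 and −0.10. Lengths were read from the recovered reads, which can be too few for some rows. The points of each rho share the same 2 libraries, and the part of length in the split was not tested.

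Hemin against no hemin gave smaller differences in the RAB family. In control cells 42 of 46 members were within 1.5-fold, none was at least 2-fold higher (0 of 46, against 2.6% of the 10799 genes compared), and RAB3D was at least 2-fold lower at −1.06 (interval −1.35 to −0.95; 1 of 46, against 2.59%). RAB13 at 0.93 (interval 0.85 to 1.02) was 1.5-fold higher (1 of 46, against 9.26%), and RAB27B and RAB38 joined RAB3D among the 3 that were 1.5-fold lower (against 8.21%). The median ratio was 0.04 for RAB genes and −0.01 for all genes.

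In knockdown cells 40 of 45 were within 1.5-fold of the level without hemin. None was 2-fold higher (0 of 45, against 2.31% of 10828 genes), and RAB20 was 2-fold lower (1 of 45, against 1.7%). RAB20, an early endosome and phagosome member, stood at 17.5, 12.6, 17.4 and 8.21, so both hemin libraries were below both others. Its ratio was −0.45 in control and −1.04 in knockdown cells (interval −1.33 to −0.84), and its hemin term was −0.75 (SE 0.27, limma adjusted p = 0.073), which did not pass. At 1.5-fold 3 members were higher and 2 lower in knockdown cells, against 12.1% and 10.7% of all genes, and no member was 1.5-fold apart in one direction in both genotypes (0 of 43, against 2.78% of 10465 genes higher and 2.74% lower; at 2-fold, 0 of 43 against 0.573% and 0.545%). In the additive fit no member rose or fell with hemin by limma's adjusted p (0 of 48 each, where 3.02% of all genes rose and 2.93% fell). At an unadjusted p under 0.05, limma had 2 higher and 2 lower (9.54% and 9.42% of all genes), and the ordinary model 4 higher and 1 lower (3.48% and 3.74%). The summed erythroid marker level given above was higher with hemin in both genotypes, while the RAB sum differed by −0.03 and −0.07 on the log2 scale.

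**Figure D4:**
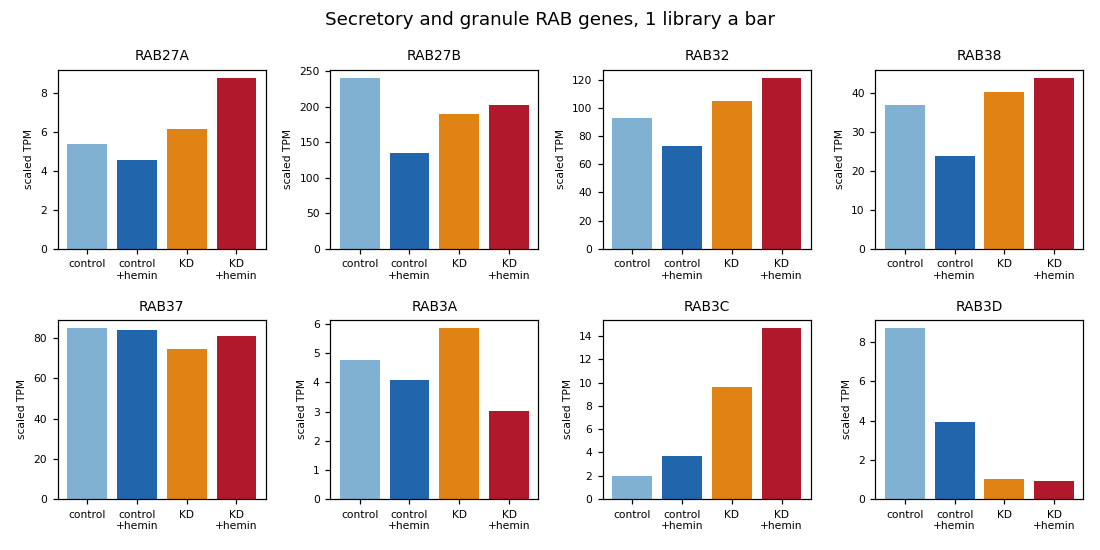
Level (scaled TPM, linear axes from 0, a different scale in each panel) of 8 RAB genes of secretory granules and lysosome-related organelles; each bar is 1 library and has no error bar. RAB27B, RAB32 and RAB38 are lowest in the control with hemin, at 135, 72.8 and 23.8.

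The granule and lysosome-related organelle members had, of the 6 compartments summed above, the sum whose knockdown ratio differed most between states. Their sum stood at 479, 338, 437 and 479, a log2 difference with hemin of −0.50 in control and 0.13 in knockdown cells. The knockdown difference was accordingly −0.13 without hemin and 0.50 with hemin. With hemin, 6 of the 10 members were at the level of 5, of which RAB3C and RAB27A reached it through the knockdown library alone. Of these 6, 5 were at least 1.5-fold higher in the knockdown and 0 were 1.5-fold lower, against 15.1% and 12.8% of all genes. The 4 below the level of 5, RAB3D, RAB26, RAB3A and RAB3B, had ratios of −1.64, −1.34, −0.38 and −0.21. These 4 ratios rest on low levels, and over all 10 members the direction was not shared. RAB27B was the largest part of each of these sums.

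RAB27B drives the docking of secretory granules and is a major RAB of platelet granules. In control cells it stood at 240 without and 135 with hemin (log2 ratio −0.83, interval −0.90 to −0.77), while the knockdown pair stood at 190 and 203 (0.10, interval 0.03 to 0.16). The knockdown ratio was therefore −0.34 without hemin (−0.40 to −0.27) and 0.59 with hemin (0.53 to 0.65). Summed megakaryocyte and platelet markers, all 10 of which had a row, stood at 2845, 1459, 2043 and 1905. The level of 5 was reached by 8, 6, 8 and 9 of these markers. Their part in the RAB27B values was not tested. RAB27A, the paralogue of lytic and melanosome granules, stood at 5.35, 4.55, 6.15 and 8.76, with a knockdown ratio of 0.18 without and 0.87 with hemin (interval 0.72 to 1.17).

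RAB32 and RAB38, which deliver cargo to melanosomes and platelet dense granules, had the same order of libraries as RAB27A; both are named after their values were seen. RAB32 stood at 92.6, 72.8, 105 and 121, and RAB38 at 37.0, 23.8, 40.4 and 43.9. The RAB38 ratio with hemin was 0.87 (interval 0.75 to 1.02) and without hemin 0.12. RAB37 of mast cell and neutrophil granules stood at 84.9, 83.9, 74.7 and 81.0 and did not share this order.

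The difference between the knockdown ratio with hemin and that without was at least 2-fold for 2 of 48 members, RAB23 upwards (1, against 3.39% of 11162 genes) and RAB13 downwards (1, against 2.88%). With 1 library a group this difference has no test. RAB23, which acts at cilia, stood at 13.3, 10.2, 9.09 and 17.9. Its ratio was −0.52 without hemin (interval −0.85 to −0.25) and 0.79 with hemin (0.59 to 1.05). The value without hemin was −0.21 from its other transcript. Beyond counting error, 8 members had knockdown ratios of opposite sign in the 2 states (8 of 46, 17.4%, against 15.1% of 10617 genes, a share near the background), all of them but RAB23 and RAB27B under 1.5-fold in each state. For hemin ratios in the 2 genotypes the count was 9 of 43 (20.9%, against 19.1% of 10461 genes). RAB8B, at 51.9, 56.2, 40.2 and 74.8, was one of the 8 with knockdown ratios of opposite sign. Its paralogue RAB8A was higher in the knockdown in both states, by 0.41 and 0.25. RAB11A had ratios of 0.18 and 0.56, and RAB11B, at 80.4, 75.5, 102 and 72.2, had 0.34 and −0.06.

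Of 43 members at the level of 5 in all 4 comparisons, 28 were within 1.5-fold in all of them (65.1%, against 45.2% of 10332 genes) and 41 within 2-fold (95.3%, against 81.0%). Among the 10 most abundant, RAB7A ranged from −0.35 to 0.46 over the 4 ratios, the highest value being the knockdown without hemin. Of the members with several transcripts in the table, 15 in all, the ratios of a gene's transcripts differed by 0.016 to 0.52, most in RAB34.

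Genes that act on RAB proteins were read from 5 lists, with 140 genes in the table. Past 2-fold in the knockdown without hemin were 3 higher and 5 lower of 118, and with hemin 1 higher and 3 lower of 120; their median ratios were −0.02 and −0.11. These 2-fold shares were below those of all genes given above. Called with knockdown in the additive fit were 0 of 7 prenylation and recycling factors in either direction, 0 up and 2 down of 28 exchange factors, 4 up and 1 down of 14 TRAPP subunits, 2 up and 3 down of 32 TBC proteins, and 1 up and 4 down of 39 effectors. For all genes these shares were 12.1% up and 10.2% down; TRAPP subunits stood at 28.6% up and effectors at 10.3% down. Of these lists, 2 effectors were at least 2-fold apart in the same direction in both states. SYTL1, which tethers RAB27 granules to the plasma membrane, fell from 46.6 and 27.9 in the control to 8.52 and 4.62 in the knockdown libraries, with log2 ratios of −2.38 and −2.47 and a knockdown term of −2.43 (SE 0.26, limma adjusted p = 3.1e-18). KIF20A, a mitotic kinesin that also binds RAB6, rose from 14.3 and 10.6 to 36.4 and 35.3, with ratios of 1.32 and 1.69 (knockdown term 1.51, limma adjusted p = 6.5e-08).

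TRAPP is the exchange complex of RAB1 and RAB11, and its subunits, named after their values were seen, moved both ways. TRAPPC9 rose with knockdown, at 34.2, 49.2, 71.7 and 87.5 (term 0.94, limma adjusted p = 0.00071), as did TRAPPC1 (0.78), TRAPPC5 (0.76) and TRAPPC2L (0.73). TRAPPC10, which with TRAPPC9 belongs to the larger form of the complex, fell, at 70.4, 58.2, 38.7 and 33.1 (term −0.83, adjusted p = 0.0037). The genes below other than SYTL1 were likewise named after their values were seen. Among exchange factors DENND4C, which acts on RAB10, fell with knockdown by 1.13. Among effectors RABEP1 of RAB5, EXOC6 of RAB11 and EHBP1L1 of RAB8 fell, at terms of −0.75, −0.78 and −0.67. Called up with hemin in the additive fit were 2 of 32 TBC proteins and 1 of 28 exchange factors, where 3.02% of all genes rose. Called down were 1 of 14 TRAPP subunits and 1 of 39 effectors, where 2.93% of all genes fell. With hemin, TBC1D15, which acts on RAB7, rose by 1.01 and TBC1D23 by 0.72. TRAPPC6A fell by 0.83 and SYTL1 by 0.77, the latter just under the threshold (limma adjusted p = 0.0496).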

How the data were processed

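RNA-seq libraries were made from 250 ng of total RNA, per the labels' protocols. The authors deposited RPKM values per RefSeq transcript, per the file headers, and the submitters' processing notes list Bowtie and hg19 without saying how either was used. How reads were counted, and whether by strand, is not stated in the labels. The deposited values still carry depth: after each column was divided by the relative value of 1 read, whole reads were recovered for 24533 of 24538 rows (within 0.0002 of a read, plus a relative tolerance of 4e-09). The other 5 rows, TRIM28 among them, hold whole numbers and have no counting interval. Recovered reads gave depth and intervals, not a count test, since each group has 1 library.

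A gene is its transcript with the highest mean value. Levels were divided by reads and by trimmed-mean (TMM) factors of 0.964 to 1.03. Ratios used genes at 5 or more in the higher library. The additive model was fitted with limma 3.58.1 in R 4.3.3 on log2(level + 0.5), with a trend on expression and infinite prior degrees of freedom. It was run on simulated data with a fixed spread, known knockdown changes and no hemin changes. These libraries differ from that setting, so the run cannot show how the p-values behave here.

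Members named by rule are the 10 highest in the control without hemin, those past 1.5-fold one way in both knockdown or both hemin comparisons, past 2-fold in any, or called, and their paralogues. The other members named, such as RAB4A, RAB4B, RAB23, RAB32, RAB33A, RAB33B, RAB34, RAB37 and RAB38, lie outside this rule and were picked after their values were seen. Machinery genes named by rule are at most 3 a list, past 2-fold in both, which gave SYTL1 and KIF20A. The other machinery genes named lie outside this rule and were picked after their values were seen. The members and lists were chosen with earlier results of these data known. Alternatives were other scalings, floors, pseudocounts, transcripts and spreads. KAP1 ChIP-seq of mouse cells was not used here. The values of 1 called exchange factor are not reported here.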

Additional observations from a re-analysis of the deposited data

Results flagged for a closer look

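RAB23 was higher in the knockdown with hemin and lower without, beyond counting error, with a difference of 1.31 between the log2 ratios. RAB27B did the same with a difference of 0.93. For both genes the hemin ratio likewise had opposite signs in the 2 genotypes, with the same differences of 1.31 and 0.93, since these are the same 4 values. RAB13 was higher with hemin in control cells and lower in knockdown cells, a difference of −1.12. None of these differences was tested, because each group is 1 library.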

How the results depend on the processing

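Each group is 1 library, so no library could be left out and none of the ratios has a biological error. No paired analysis was possible because each group holds 1 library. Low members rest on few reads, such as 33 for RAB3C in the control without hemin. No called term and no ratio past 2-fold of a RAB gene changed sign, but without rescaling of the deposited values the balance of higher and lower members with hemin in knockdown cells turned, as did the order of the TRIM28 ratios. The transcript with the most reads, and limma without the trend, changed none of the counts by over 1.5 times, though RAB14 lost its call without the trend (adjusted p = 0.062). An ordinary model called 0 RAB genes up and 0 down with knockdown, at adjusted p from 0.49 to 0.52 for the 5 called members. It also called 0 of all 11162 genes in either direction, so this is not particular to RAB genes. The cause of the changes below was not tested.

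Counts are members past 2-fold unless named otherwise. With the deposited values as they stand, which leave depth in, there were 1 higher and 9 lower in the knockdown without hemin and 4 higher with hemin, 2 higher and 0 lower with hemin in control cells, 26 higher and 0 lower with hemin in knockdown cells, 13 with a higher ratio difference, 1 past 1.5-fold higher in both states, and 0 risen and 1 fallen in the fit; the machinery genes came to 0 higher and 28 lower without hemin and 2 higher with hemin, and TRIM28 to −0.99 and −0.86. With plain totals 4 members were past 1.5-fold higher in both states, machinery genes came to 7 higher and 2 lower without hemin, TRIM28 to −0.30 without hemin, and RAB4B was called (adjusted p = 0.029). With equal medians 5 machinery genes were higher without hemin.

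With a floor of 1, there were 2 higher and 3 lower in the knockdown with hemin, 1 higher with hemin in control cells, 2 with a lower ratio difference, 2 past 1.5-fold lower in both states and 2 machinery genes higher with hemin. With a floor of 20, which leaves out RAB3C, RAB3D and RAB40B, there were 1 higher and 0 lower in the knockdown without hemin, 0 higher and 0 lower with hemin, 0 lower with hemin in either genotype, 0 with a higher ratio difference, 1 higher and 0 lower past 1.5-fold in both states, 1 fallen in the fit and 3 machinery genes lower without hemin. RAB4B was then called (adjusted p = 0.042). With a pseudocount of 0.1 there were 2 lower in the knockdown without hemin and 2 with a higher ratio difference. With a pseudocount of 2 there were 0 lower in the knockdown with hemin, 0 lower with hemin in either genotype, and 3 machinery genes lower without hemin.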
